A study of Gracilariopsis lemaneiformis with 12 samples.

Results

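The 58 loci described here were higher in tissue of the red seaweed Gracilariopsis lemaneiformis treated with indole-3-acetic acid (IAA) than in untreated tissue on both days sampled. They were chosen from 25766 loci built from 30780 assembled sequences, where contigs whose IDs share the text before the contig number were summed as 1 cluster and each Unigene was kept as its own locus. FPKM is a level per length, the fragments per kilobase of a sequence scaled to the fragments of its library. A locus was kept if its highest group mean was at least 5 FPKM, if log2(group mean + 1) was higher with IAA by at least 0.6 on each day, and if all 3 IAA libraries lay above all 3 control libraries on each day. The size and direction of the IAA difference on each day are therefore what chose these loci, and they are given below as a description with no test.

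The study used strain 981 and sequenced 12 libraries in 4 groups of 3, namely untreated tissue at day 1, tissue with 100 µM IAA for 1 day, untreated tissue at day 3 and tissue with 100 µM IAA for 3 days. All 12 are labelled as rhizoids, the holdfast tissue of the alga, from branches and from short primary pieces, and the labels name no genetic change in any group. The design text leaves room for another tissue on each day, so time and tissue cannot be told apart in a difference between days. Nothing states that the 3 libraries of a group came from separate cultures, so errors and p-values measure the spread between libraries, which may be technical. Since whole tissue was sequenced, a higher level cannot be told apart from more cells of a type that holds the transcript.

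IAA is an auxin, a hormone known in land plants for its control of cell elongation, branching and root formation. In land plants IAA brings a receptor of the TIR1 family together with Aux/IAA repressors, the repressors are degraded, and auxin response factors are freed to change transcription within minutes to hours. How red algae sense IAA is much less well understood. Gracilariopsis lemaneiformis is grown for its agar, a wall polysaccharide. The files give no gene names, annotations or sequences for these IDs, so the 58 loci carry no known role, no list of auxin, wall or growth genes could be applied, and the tissue label could not be checked against marker genes.

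The 12 libraries summed to between 291205 and 308835 FPKM. Pearson's r of log2(FPKM + 1) over the 11044 loci with a mean of at least 1 FPKM ran from 0.990 to 0.993 over the 12 within-group pairs and from 0.963 to 0.985 over the 54 others. Read totals are unknown because FPKM does not hold them. In limma's fit across these loci 711 were higher with IAA at day 1 (6.44% of those tested) and 4290 at day 3 (38.8%), at a Benjamini-Hochberg adjusted p under 0.05. The number at day 3 depended on scaling and fell to 2364 with median-of-ratios size factors and to 1626 after quantile normalization. At day 1 it was 822 and 848 under the same scalings, so the number at day 3 stayed larger by a smaller margin.

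Of 5512 loci with a group mean of at least 5 FPKM, 129 met the rule at day 1 (2.34%) and 861 at day 3 (15.6%). The 58 loci that met it on both days (1.05%) were 44.96% of the day 1 loci and 6.74% of the day 3 loci. None of the 71 loci that met the rule at day 1 alone missed it at day 3 only through overlap of libraries, since all fell short of the limit of 0.6. Of these, 33 had a day 3 difference between 0 and 0.6 and 38 had one at or below 0. Of the 803 loci that met it at day 3 alone, 669 had a day 1 difference at or below 0.

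The 58 loci consist of 45 Unigenes and 13 clusters. Clusters made up 22.4% of them and 30.2% of all loci of at least 5 FPKM. No member was listed at 0 in any library. Highest group means ran from 5.17 to 1804 FPKM, and 11 members stayed under 10 FPKM. The median member was at 7.48 FPKM in day 1 controls, 23.9 FPKM with IAA at day 1, 6.74 FPKM in day 3 controls and 24.3 FPKM with IAA at day 3.

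Together the members took 0.802 ± 0.0211% of summed FPKM in day 1 controls and 1.96 ± 0.0381% in day 1 IAA libraries (SD, n = 3). At day 3 they took 0.823 ± 0.00846% in controls and 2.32 ± 0.0173% with IAA. Their summed level in controls was thus nearly the same on both days, but this does not describe each member. The most abundant, CL952, averaged 831 FPKM in day 1 controls and 1121 FPKM in day 3 controls. Without overlap of libraries, day 3 controls were lower than day 1 controls in 32 of the 58 members and higher in 13. The 3 members with the highest group means, CL952, CL1644 and CL349, held 45.2% of the summed difference between IAA and control at day 1 and 42.1% at day 3.

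**Figure D1:**
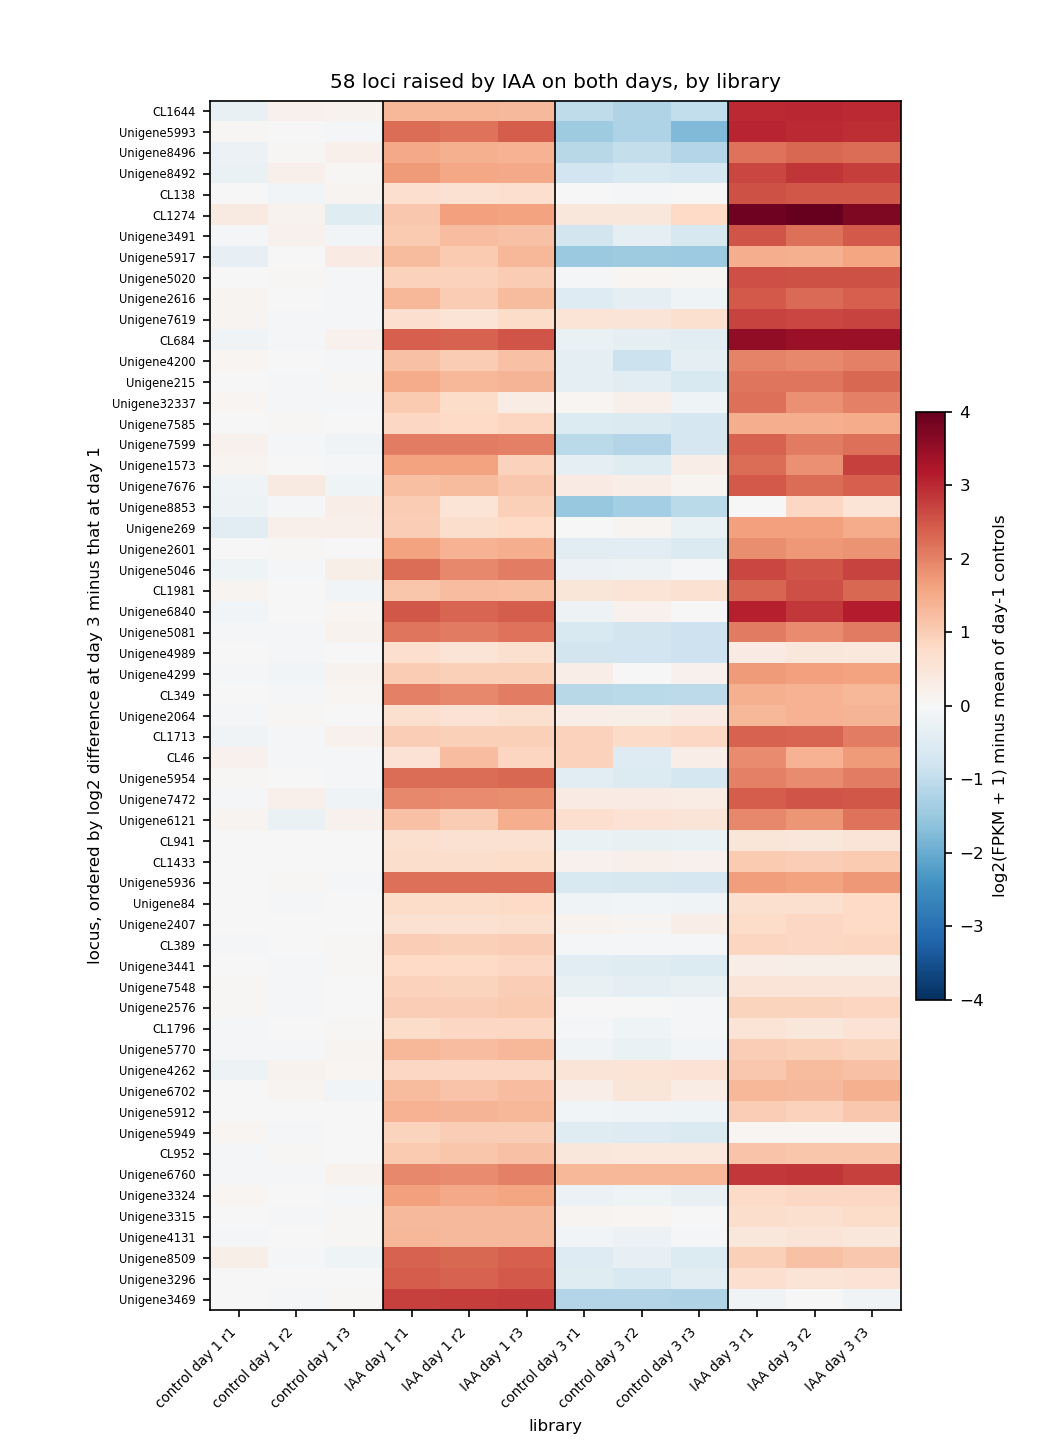
Colour gives log2(FPKM + 1) minus the mean of the 3 day 1 controls for each of the 58 loci (rows) in each of the 12 libraries (columns). Rows run from the locus with the most positive gap between its day 3 and day 1 IAA differences, CL1644 at 2.77, to the most negative, Unigene3469_All at -1.65, and each IAA block lies further toward red than the control block of the same day in every row.

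At day 1 the log2 difference between IAA and control ran from 0.61 to 2.75 with a median of 1.20 over the 58 members, against a median of -0.06 over all 5512 loci of at least 5 FPKM. The FPKM ratio of the group means had a median of 2.68. The largest log2 difference at day 1 was in Unigene3469_All, which was at 18.98, 17.49 and 19.38 FPKM in controls and at 128.67, 131.54 and 133.98 FPKM with IAA. Its IAA libraries lay close together and far above the controls, a ratio of 7.06 and a log2 difference of 2.75.

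The cluster CL684 was next at day 1. Its controls were at 41.75, 44.95 and 52.85 FPKM and its IAA libraries at 249.17, 239.86 and 270.55 FPKM, a ratio of 5.44 and a log2 difference of 2.42. The lowest IAA library was thus several times the highest control. Both loci belong to the 11 members whose day 1 log2 difference was at least 2.

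At day 3 the log2 difference ran from 0.61 to 4.45 with a median of 1.72, against a median of 0.01 over all loci of at least 5 FPKM, and the FPKM ratio had a median of 4.36. A log2 difference of at least 2 was seen in 26 members. The largest was in Unigene5993_All, at 0.39, 0.59 and 0.10 FPKM in controls and 29.58, 28.43 and 27.86 FPKM with IAA. The log2 difference on the scale with 1 FPKM added was 4.45, and the plain ratio of 79.5 rests on control values near the lower end of what was measured.

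CL1644, a cluster of 10 contigs, had the second largest log2 difference at day 3. It was at 64.49, 56.36 and 66.26 FPKM in day 3 controls and at 1047.98, 1073.78 and 1062.02 FPKM with IAA, a ratio of 17.0 and a log2 difference of 4.07. At day 1 its controls were at 106.42, 148.13 and 146.19 FPKM and its IAA libraries at 333.59, 332.01 and 323.60 FPKM, a ratio of 2.47. The day 1 controls spread more widely than any of its other groups, with replicate 1 the lowest.

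The most abundant member was CL952, with controls at 781.99, 862.21 and 847.79 FPKM and IAA libraries at 1700.49, 1795.57 and 1870.28 FPKM at day 1. At day 3 its controls were at 1137.38, 1114.43 and 1112.48 FPKM and its IAA libraries at 1850.64, 1782.11 and 1780.27 FPKM. The IAA level was about the same on both days while the control level was higher at day 3, so the ratio went from 2.15 to 1.61.

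**Figure D2:**
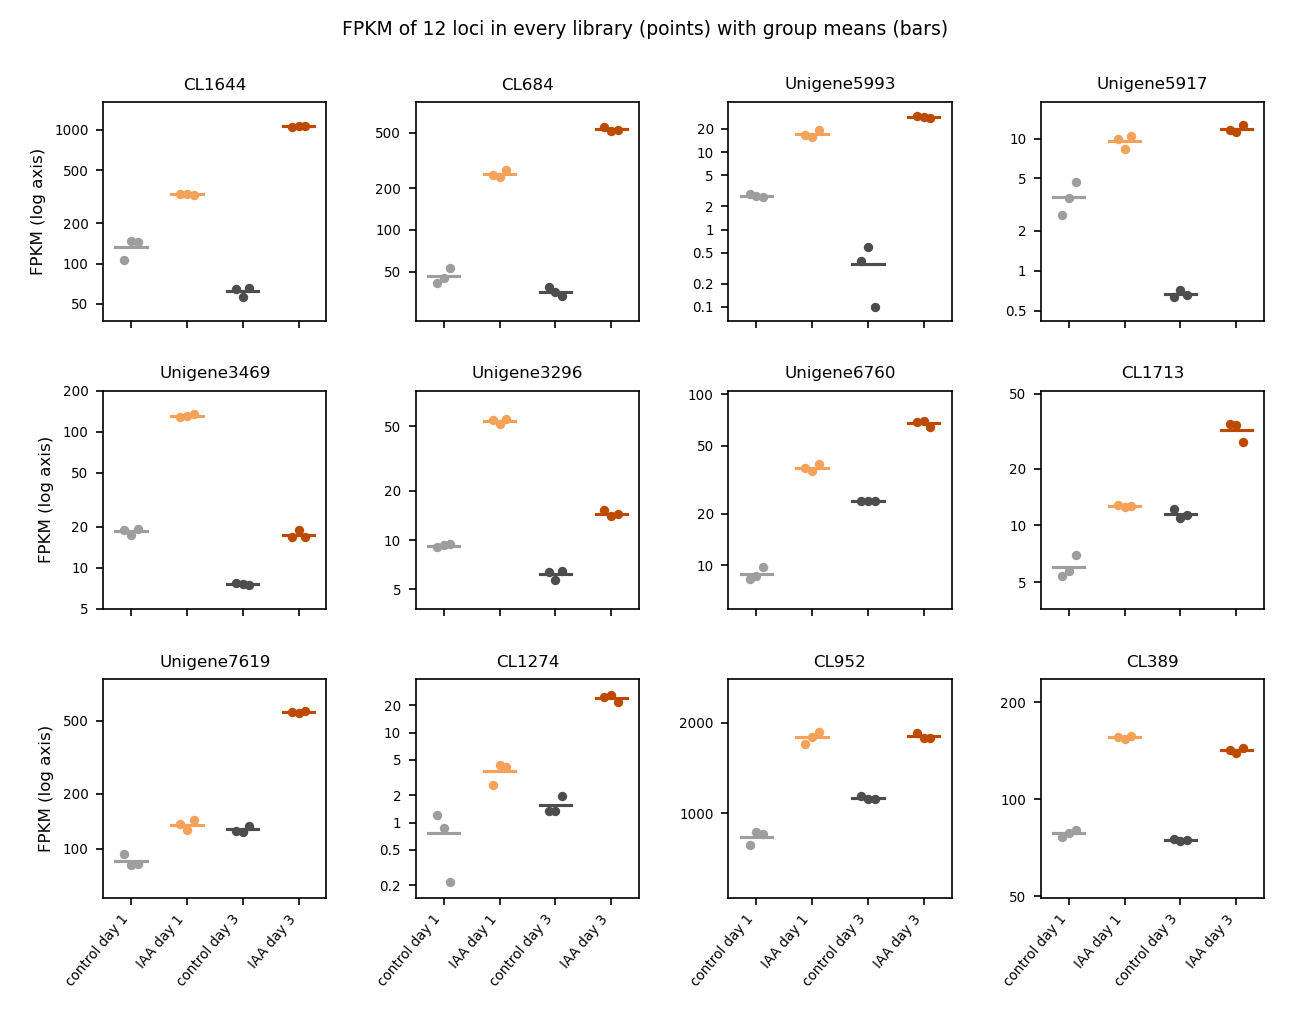
Each panel gives the FPKM of 1 locus on a log axis in the 3 libraries of each group (points) with the group mean (bar), and panels have their own range. In all 12 panels both IAA groups lie above the control group of the same day, while the order of the IAA groups differs, with Unigene3469_All at 131 and 17.5 FPKM and CL1644 at 330 and 1061 FPKM at day 1 and day 3.

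The members differed in how the IAA difference compared between the days. Divided at a gap of 0.6 on the log2 scale, a division chosen after seeing the values, 26 had a larger difference at day 3, 27 had differences within 0.6 of each other and 5 had a larger difference at day 1. The median log2 differences of the first set were 1.25 at day 1 and 2.70 at day 3, those of the second 0.97 and 1.03, and those of the third 2.34 and 1.10. Across the 58 loci the day 1 and day 3 differences had a Pearson's r of 0.44 and a Spearman's rho of 0.49, given as a description, since both were limited from below by the rule and share the library preparation and scaling of the series.

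The largest gaps toward day 3 were in CL1644, at 2.77, and Unigene5993_All, at 2.16. Unigene5993_All was at 2.87, 2.70 and 2.61 FPKM in day 1 controls and 16.54, 15.82 and 19.11 FPKM with IAA at day 1. For both loci the controls were lower at day 3 than at day 1 and the IAA libraries higher, with no overlap, so the gap came from movement on both sides.

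The largest gaps toward day 1 were in Unigene3469_All, at -1.65, and Unigene3296_All, at -1.29. At day 3 Unigene3469_All was at 7.74, 7.67 and 7.48 FPKM in controls and 16.88, 18.85 and 16.89 FPKM with IAA, a ratio of 2.30. Its IAA level at day 3 was thus close to its control level at day 1. Unigene3296_All went from 54.06, 51.12 and 55.02 FPKM with IAA at day 1 to 15.21, 13.98 and 14.41 FPKM at day 3, over controls of 9.05, 9.32 and 9.4 FPKM and then 6.39, 5.66 and 6.45 FPKM. Its ratio went from 5.77 to 2.36, and the groups stayed apart on each day.

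**Figure D3:**
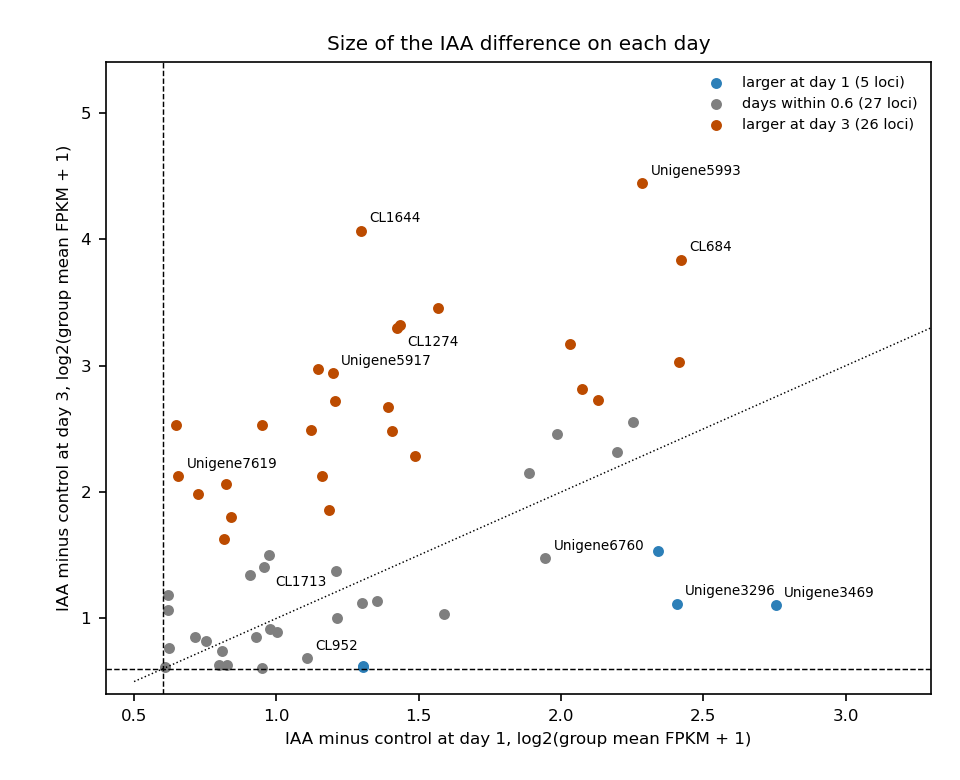
Each point is 1 of the 58 loci, with its log2 difference between IAA and control at day 1 on the x axis and at day 3 on the y axis. Dashed lines mark the limit of 0.6 that chose the loci and the dotted line marks equal differences, with 26 loci more than 0.6 above it, 5 more than 0.6 below it and 27 within 0.6 of it.

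The limit of 0.6 cut through a continuous range of values. The members nearest to it were Unigene2407_All, with log2 differences of 0.61 at day 1 and 0.62 at day 3, and Unigene5949_All, with 0.95 and 0.61. Just outside, with all other parts of the rule met, lay Unigene19876_All, with 0.60 (0.598) at day 1 and 1.82 at day 3, and Unigene2594_All, with 0.85 and 0.59. In all, 12 members had a smaller difference under 0.7, and 10 loci outside had one between 0.5 and 0.6 and met the rest.

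Untreated tissue itself differed between the days at most of these loci. The controls of the 2 days did not overlap in 45 of the 58 members, with day 3 lower in 32 (55.2%) and higher in 13 (22.4%). Over all loci of at least 5 FPKM the shares were 46.9% lower and 25.2% higher, so the members' controls were divided much like those of other loci. With IAA, day 3 was above day 1 without overlap in 35 members (60.3%) and below it in 20 (34.5%), against 27.5% and 37% of all loci of at least 5 FPKM. In 13 members (22.4%) the controls were lower and the IAA libraries higher at day 3, both without overlap, against 5.37% of all loci of at least 5 FPKM, and in 0 members was it the other way round. These libraries also entered the choice of the members, so the shares are a description.

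The largest positive differences between days in controls were in Unigene6760_All and CL1713. Unigene6760_All was at 8.31, 8.66 and 9.81 FPKM in day 1 controls and 23.88, 23.75 and 23.89 FPKM in day 3 controls, and with IAA at 36.89, 35.82 and 38.88 FPKM and then 69.10, 70.24 and 64.84 FPKM. Its 4 groups thus formed 4 separate levels, with both days and both treatments apart. CL1713 was at 5.4, 5.73 and 6.97 FPKM and then 12.21, 10.90 and 11.35 FPKM in controls, and its day 1 IAA libraries, at 12.89, 12.45 and 12.65 FPKM, lay only just above the day 3 controls. Its IAA libraries at day 3 were at 34.60, 33.88 and 27.77 FPKM.

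The largest negative ones in controls were in Unigene5917_All and Unigene5993_All. Unigene5917_All went from 2.62, 3.57 and 4.66 FPKM to 0.63, 0.71 and 0.65 FPKM in controls, while its IAA libraries were at 9.91, 8.39 and 10.48 FPKM at day 1 and 11.53, 11.21 and 12.59 FPKM at day 3. Most of the gap between its day 1 ratio of 2.65 and its day 3 ratio of 17.8 thus lay in the controls.

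With IAA the largest positive differences between days were in CL1274 and Unigene7619_All. In CL1274, which has 1 contig in the table, the day 1 IAA libraries were at 2.64, 4.40 and 4.18 FPKM and those of day 3 were at 24.52, 26.17 and 21.70 FPKM, over controls of 1.21, 0.87 and 0.22 FPKM and then 1.33, 1.33 and 1.99 FPKM. Unigene7619_All went from 136.30, 126.60 and 143.27 FPKM to 561.15, 551.88 and 565.00 FPKM with IAA, over controls of 93.17, 80.91 and 82.85 FPKM and then 125.63, 123.33 and 132.79 FPKM. At day 1 the IAA libraries of Unigene7619_All were therefore close to where its controls stood at day 3, and the large separation appeared at day 3. The largest negative ones with IAA were in Unigene3469_All and Unigene3296_All, the loci described above.

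The mean of the day 3 minus day 1 difference over control and IAA was tested, since in this balanced design it is orthogonal to the IAA difference on each day. The limit of 5 FPKM on the highest group mean is not independent of it, because 7 members reached that limit at day 3 alone and 0 at day 1 alone. The test is therefore read over the 51 members that reached 5 FPKM on both days. A member could reach it through its IAA libraries alone, as Unigene6840_All did with controls at 1.03 FPKM on both days. The restriction therefore does not free the test of the limit in full. By limma with Benjamini-Hochberg adjustment over 11044 loci, 22 of the 51 were higher at day 3, 24 were lower and 5 had no call. Over the 5000 loci that reached 5 FPKM on both days 27.4% were higher and 44.4% lower, against 43.1% and 47.1% of the 51 members. The rule also asked for no overlap of libraries, which favours loci with a small spread, and a small spread makes a call easier. Nothing is therefore read from the larger share of members with a call. The median change was -0.09 over the 51 members and -0.04 over those 5000 loci.

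The members thus did not share a direction of the mean over control and IAA, although they shared the direction of the IAA difference. A call on this mean need not be the direction of each treatment. In 13 of the 58 members the controls were lower and the IAA libraries higher at day 3, both without overlap. Of the 51, all 5 members with a larger IAA difference at day 1 were lower at day 3, those with a larger difference at day 3 had 12 higher and 5 lower of 21, and those in between had 10 higher and 14 lower of 25. The gap that made these sets and the mean tested both contain the change between days with IAA. This split is therefore a description and no separate result. Of the 7 members that reached the limit at day 3 alone 6 were called higher, which the limit favours. With them 28 of all 58 were called higher (48.3%) and 24 lower (41.4%), and the median was 0.16. The shares called were 26.8% and 46.5% over loci of at least 5 FPKM on either day and 15.4% and 54.7% over all loci tested. With median-of-ratios size factors, which moved the median of all loci by 0.24, 37 of the 58 were higher and 12 lower, and after quantile normalization 33 were higher and 20 lower.

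By this test Unigene7619_All rose by 1.30 ± 0.04 on the log2 scale (SE; limma adjusted p = 6.82e-11). The difference of 1.49 ± 0.15 in CL1274 was larger but is given with no test, since this locus reached 5 FPKM only with IAA at day 3. The largest falls were -2.01 ± 0.03 in Unigene3469_All (limma adjusted p = 4.43e-13) and -1.16 ± 0.04 in Unigene3296_All (limma adjusted p = 1.22e-10). CL1644 rose by 0.30 ± 0.07 (limma adjusted p = 0.00249), a small mean made of a fall in controls and a larger rise with IAA. For Unigene5993_All the mean was -0.38 ± 0.08, made of a fall in controls and a smaller rise with IAA. It is given with no test, since this locus reached 5 FPKM only with IAA. With a pseudocount of 0.1 FPKM it was -1.03, so its size depends on the value added to low controls. The locus is among those counted as lower above, and that call was lost with size factors (-0.19) and after quantile normalization (-0.18).

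**Figure D4:**
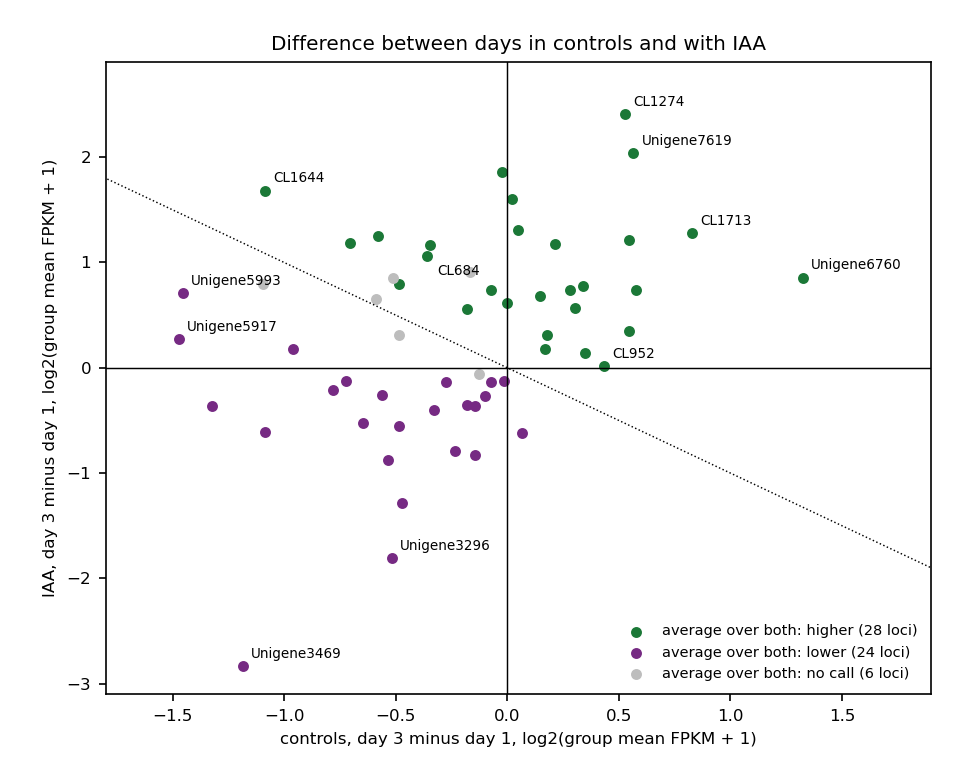
Each point is 1 of the 58 loci, with the day 3 minus day 1 difference of log2(group mean FPKM + 1) in controls on the x axis and with IAA on the y axis. Colours give the call of the averaged contrast (28 higher, 24 lower, 6 without a call), the dotted line marks an average of 0, and the upper left holds loci such as CL1644 at -1.09 in controls and 1.68 with IAA.

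Summing contigs hides how a cluster's level is divided among them. The 12 member clusters with more than 1 contig hold 53 contigs, of which 34 in 10 clusters had a mean of at least 1 FPKM with at least 1 FPKM in the other contigs of the cluster. The log2 ratio of a contig to the rest of its cluster was compared between IAA and control, averaged over both days. By limma with adjustment over 4616 contigs of all clusters, 7 of the 34 were higher with IAA, 11 were lower and 16 had no call, in 5 of the 10 clusters. Over all contigs tested 3.16% were higher and 2.62% lower, but the member clusters were chosen for a higher sum of these same values with IAA. A cluster in which 1 contig was higher and the others stayed level must show a change of share. The counts and the values below are therefore a description, given with no p. Contigs of a cluster may share reads, so the division among near-identical contigs is uncertain, and their ratios depend on each other.

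In CL1644 some contigs were far higher with IAA and another was flat. CL1644.Contig5_All stayed between 23.09 and 26.89 FPKM in all 12 libraries. Its ratio to the rest of the cluster differed by -3.15 ± 0.10 on the log2 scale between IAA and control (SE), which for a flat contig mirrors the higher sum of the others, and it went from 39.8% of the cluster in day 3 controls to 2.48% with IAA at day 3. CL1644.Contig2_All, singled out after its values were seen, averaged 24.4 ± 3.49 FPKM over day 3 controls and 789 ± 11 FPKM over the matching IAA libraries (SD, n = 3), and its ratio to the rest differed by 1.39 ± 0.07. The day 3 ratio was 32.3 for contig 2 alone and 17.0 for the cluster as a whole.

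In CL389 contigs that were nearly absent from controls appeared with IAA beside an abundant one. CL389.Contig4_All was listed at 0 in 5 of the 6 control libraries and averaged 21.1 ± 3.77 FPKM in day 1 IAA libraries and 15.9 ± 3.00 FPKM in those of day 3 (SD, n = 3), and its ratio to the rest was higher by 3.45 ± 0.14 on the log2 scale (SE). For CL389.Contig2_All the same measure was higher by 3.17 ± 0.14. The abundant CL389.Contig5_All averaged 74.4 ± 2.57 FPKM in day 1 controls and 101 ± 7.15 FPKM with IAA. Its day 3 levels were 70.3 ± 0.365 FPKM in controls and 96.4 ± 4.18 FPKM with IAA. It went from 94.8% to 64.9% of the cluster at day 1 and from 94.2% to 67.9% at day 3, and its ratio to the rest differed by -2.85 ± 0.11. The steady ratio of CL389 as a whole, 1.98 at day 1 and 1.9 at day 3, was thus made of a small ratio in an abundant contig and of contigs at or near 0 in controls. CL389.Contig6_All, singled out after its values were seen, went the other way. It averaged 2.75 FPKM in day 1 controls and 3.32 FPKM in day 3 controls and was listed at 0 in 5 of the 6 IAA libraries. Its ratio to the rest differed by -2.57 ± 0.40 (SE).

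CL349 and CL684 were singled out after their values were seen, as clusters with 2 abundant contigs each. In CL349 contig 1 averaged 105 ± 7.75 FPKM over day 1 controls and 498 ± 23.8 FPKM over day 1 IAA libraries (SD, n = 3), a ratio of 4.77, while contig 5 had a ratio of 1.68. At day 3 the ratios were 8.93 and 1.63, and the log2 ratio of contig 1 to the rest was higher by 1.97 ± 0.07 with IAA (SE). In CL684 the contigs had similar ratios of IAA to control, 5.18 and 5.74 at day 1 and 13.6 and 16.0 at day 3, and the log2 ratio of contig 2 to contig 1 was higher by 0.19 ± 0.08 with IAA.

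**Figure D5:**
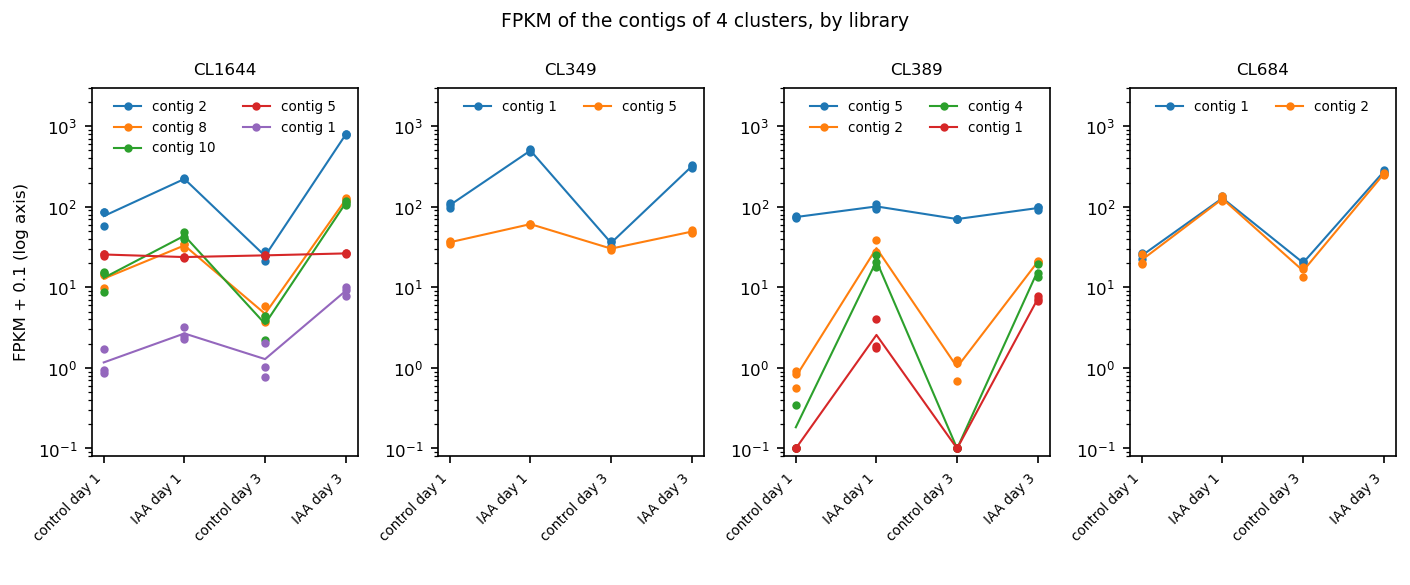
FPKM plus 0.1 is given on a log axis for contigs of 4 clusters with a group mean of at least 5 FPKM, with points for the 3 libraries of a group and lines through the group means. Contig 5 of CL1644 is flat at 23.09 to 26.89 FPKM beside contigs that are higher with IAA, and the lines of both contigs of CL684 lie close together. In CL389 contigs 1 and 4 lie at or near the bottom of the axis in controls and contig 2 lies above them, and all of these are higher with IAA.

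In the authors' deposited tables of changed sequences, 43 of the 58 members have at least 1 sequence listed as higher at day 1 and 47 at day 3. Of all 5512 loci of at least 5 FPKM, the authors' deposited tables hold a sequence listed as higher for 4.48% at day 1 and 10.9% at day 3, and nothing is read from this gap because the members were chosen for the same differences. A sequence listed as lower was found beside a higher one in 3 members at day 1 and 2 at day 3. The authors' deposited tables hold no sequence of 15 members at day 1 and of 11 at day 3. They were made from the same libraries, so the overlap is no separate evidence.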

How the data were processed

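The authors deposited FPKM values with 2 decimals for 12 libraries, per the file headers, and 1 table per day of changed sequences whose log2 ratios, q-values and p-values are the authors' own. Bowtie2 2.2.5 is named in the submitters' processing notes without its role. Assembler, quantifier and the authors' test: not given in the sources used here. FPKM holds no read totals, so the depth and the counting error are unknown.

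Contig FPKM values were summed per cluster. Loci averaging at least 1 FPKM across the 12 libraries were analysed as log2(FPKM + 1) in limma 3.58.1 (R 4.3.3), with 4 group means, no replicate block, a trend in the variance prior, two-sided tests and Benjamini-Hochberg adjustment over all loci, and an adjusted p under 0.05 was a call. The scale understates the change of low loci. Contigs were analysed as log2((contig + 1)/(rest of cluster + 1)) in the same way. Both fits were tested on simulated data with independent normal noise, which holds no reads shared between contigs. Tables and figures were made with Python 3.11.15.

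The members, limits and tests were chosen with earlier results of these data known. Named members are at most 2 per comparison and direction, those with the largest difference, the highest mean or nearest the limit, and others are marked as chosen after their values were seen. Alternatives were another pseudocount, limit, filter, variance prior or scaling, the rule applied to each sequence, a replicate block and leaving out each library.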

Additional observations from a re-analysis of the deposited data

Results flagged for a closer look

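In 13 members every day 3 control lay below every day 1 control while every day 3 IAA library lay above every day 1 IAA library, against 296 of the 5512 loci of at least 5 FPKM (5.37%). All 13 are among the 26 with a larger IAA difference at day 3. A gap toward day 3 follows by arithmetic from lower controls and higher IAA libraries, so this is no separate result. The day 3 minus day 1 difference was more positive with IAA than in controls by 2.77 on the log2 scale in CL1644, by 2.16 in Unigene5993_All, by 1.74 in Unigene5917_All and by 1.42 in CL684. These gaps are made of the IAA differences that chose the members, so they were not tested. Level moved along with them in Unigene5993_All and Unigene5917_All, whose day 3 controls were all under 1 FPKM, and its part in the gap was not tested.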

How the results depend on the processing

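The number of members was 56 to 63 on leaving out each library, and 50 of the 58 were kept in all 12 omissions. It was 39 with a limit of 20 FPKM on the highest group mean, 82 with a limit of 1 FPKM and 65 with a pseudocount of 0.1 FPKM. It was 31 with a log2 limit of 1, 47 with median-of-ratios size factors, 51 after quantile normalization, 53 after rescaling to a common sum and 72 sequences when the rule was applied to each sequence. Of the 58, 44, 48 and 52 were kept under the 3 scalings and 42 under all of them. Size factors moved the day 3 median of all loci by -0.23 and quantile normalization by -0.22, and the lowest member's day 3 difference was then 0.27 and 0.31, so no member changed direction. In the averaged day contrast, 26 to 29 members were higher and 24 to 25 lower without each library, and 12 were lower with size factors. Over the 51 members of at least 5 FPKM on both days, a restriction chosen after seeing the data, 22 were higher and 24 lower, and the median turned from 0.16 to -0.09. For contig shares 6 to 8 were higher and 10 to 11 lower without each library, 7 were lower with a pseudocount of 0.1 FPKM and 27 with no filter on low values, where more contigs were tested. Over all loci 598 to 700 were higher with IAA at day 1 and 3682 to 4354 at day 3 without each library. With size factors the numbers were 822 at day 1 and 2364 at day 3, and after quantile normalization 848 and 1626. With a replicate block the counts were 28 and 24 for the day contrast, 6 and 11 for contig shares, and 672 and 4185 for IAA at day 1 and day 3. No pairing of libraries by number was seen in the values. Deviations from the group means correlated at -0.05 to 0.05 over 18 pairs of the same number, and 0 of 12 libraries was closest to its own number. Such values cannot show whether libraries of the same number shared a culture or harvest. Depth is unknown, which limits what can be said of members under a few FPKM.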

Other observations

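Unigene8492_All and Unigene8496_All, singled out after their values were seen as the members with the closest ID numbers, had similar log2 differences between IAA and control at different levels, the second being higher in each group. Unigene8492_All was at 1.57, 2.57 and 2.19 FPKM in day 1 controls, 8.93, 7.97 and 7.75 FPKM in day 1 IAA libraries, 0.83, 1 and 0.89 FPKM in day 3 controls and 18.75, 21.14 and 19.80 FPKM in day 3 IAA libraries. Unigene8496_All was at 4.76, 6 and 6.72 FPKM, 18.38, 17.32 and 16.65 FPKM, 2.11, 2.49 and 1.99 FPKM, and 29.73, 32.55 and 30.78 FPKM in the same order. Their log2 differences between IAA and control were 1.57 and 1.43 at day 1 and 3.45 and 3.32 at day 3. Among other neighbours in number some pairs were less alike and some more, and those given next were singled out after their values were seen. Unigene5949_All and Unigene5954_All, 5 apart, were at 0.95 and 2.25 at day 1 and 0.61 and 2.55 at day 3, while Unigene5046_All and Unigene5081_All, 35 apart, were at 2.07 and 2.13 at day 1 and 2.81 and 2.73 at day 3. The form of the ID numbers is not explained in the sources used here.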
